A study of Homo sapiens with 6 samples.

Results

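SERPINB2, which encodes plasminogen activator inhibitor 2, was followed with 7 further genes of the plasminogen activator and tissue factor systems in OVCAR8, an established line of human ovarian cancer cells. The members were named in advance by symbol, with earlier results of the same comparison known, and are SERPINB2, SERPINE2, PLAU, PLAUR, PLAT, F3, TFPI and TFPI2. All 8 were found among the 38637 genes of the deposited table, and all 8 were among the 16178 genes that passed the filter on low values. Because the genes were picked with this contrast in view, their own values are given as a description, with no p-value. They were part of the fit across all genes, and which of them it called is stated only as a count and where a call was lost.

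RNA was sequenced after selection of polyadenylated transcripts from wild-type OVCAR8 cells exposed for 72 h either to the solvent DMSO (n = 3) or to 2 nM pladienolide B (n = 3). Pladienolide B, shortened to plaB, binds SF3B1, a core protein of the U2 snRNP that recognises the branch site of introns. The comparison asks how transcript levels change when this splicing factor is inhibited. Both groups come from a single cell line, and the labels do not say whether the samples of a group were separate cultures, so p-values measure only the spread between these samples, which may be technical.

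Plasminogen activation is a proteolytic cascade at the cell surface. Urokinase (PLAU), held by its receptor (PLAUR), and tissue-type plasminogen activator (PLAT) cut plasminogen to plasmin, which degrades fibrin and extracellular matrix. Serpins end the reaction by trapping the activators, and the trapped complexes are taken up through receptors of the LDL receptor family. Tissue factor (F3) starts blood coagulation on the cell surface by binding factor VII, and the Kunitz-type inhibitors TFPI and TFPI2 restrain proteases of that arm. In ovarian cancer the system is known from work on invasion, peritoneal spread and thrombosis.

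The promoters of the members are shown first, because the member with the largest difference and several others carry the same short word in them. RefSeq sequence of GRCh38.p14 was available for the 250 bases upstream of the start of 7 of the 8 members. The window of SERPINB2 was chr18:63887455-63887704 on the plus strand, that of PLAUR chr19:43670170-43670419 on the minus strand, that of F3 chr1:94541760-94542009 on the minus strand and that of TFPI2 chr7:93890754-93891003 on the minus strand. Words in capitals were searched on both strands. The AP-1 word is TGANTCA, bound by dimers of the Jun and Fos families. The TATA word is TATAAA. The GC box is GGGCGG. The last base of each line lies just upstream of the start.
SERPINB2: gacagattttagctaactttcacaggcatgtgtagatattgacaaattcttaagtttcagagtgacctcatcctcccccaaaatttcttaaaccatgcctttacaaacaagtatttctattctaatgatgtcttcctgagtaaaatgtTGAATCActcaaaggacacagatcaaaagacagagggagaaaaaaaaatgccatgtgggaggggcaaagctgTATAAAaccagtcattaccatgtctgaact
PLAUR: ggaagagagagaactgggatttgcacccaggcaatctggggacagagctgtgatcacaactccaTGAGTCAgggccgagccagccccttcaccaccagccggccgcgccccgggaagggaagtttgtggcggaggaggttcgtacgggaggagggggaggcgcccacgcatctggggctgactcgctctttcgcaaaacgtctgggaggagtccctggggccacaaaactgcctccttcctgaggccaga
F3: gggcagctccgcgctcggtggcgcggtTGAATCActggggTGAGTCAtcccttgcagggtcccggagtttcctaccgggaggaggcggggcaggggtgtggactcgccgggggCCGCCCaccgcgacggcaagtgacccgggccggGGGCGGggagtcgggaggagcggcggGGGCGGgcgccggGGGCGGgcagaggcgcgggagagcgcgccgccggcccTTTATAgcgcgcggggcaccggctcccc
TFPI2: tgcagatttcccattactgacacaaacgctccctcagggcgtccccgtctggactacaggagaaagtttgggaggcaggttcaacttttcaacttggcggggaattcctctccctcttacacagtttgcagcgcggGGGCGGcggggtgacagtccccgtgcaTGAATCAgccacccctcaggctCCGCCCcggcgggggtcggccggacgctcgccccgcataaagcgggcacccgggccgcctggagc

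The SERPINB2 window held 1 AP-1 word at -102 to -96 and 1 TATA word at -30 to -25, counted from -1 just before the start. PLAUR held 1 AP-1 word at -186 to -180. In F3 there were 2 AP-1 words, at -223 to -217 and -210 to -204, together with 4 GC boxes and a TATA word on the opposite strand at -28 to -23. TFPI2 had 1 AP-1 word at -87 to -81 and 2 GC boxes. The AP-1 word thus stood in 4 of the 7 genes, in 2 members with higher means under plaB (SERPINB2 and PLAUR) and in both members with lower means (F3 and TFPI2). Of 35114 RefSeq promoters of the same length, 6.57% held the AP-1 word, 10.7% the TATA word and 42.6% the GC box. The NF-kB word GGGNNTTTCC, found in 1.73% of promoters, was in none of the windows. The E-box CACGTG was found in 6.35% of promoters. PLAU had 3 GC boxes in the second of its 2 windows, SERPINE2 had GC boxes in both of its windows and an E-box in 1 of them, and TFPI had no match. These matches describe the letters of the windows only.

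A second kind of sequence word was shared more widely. AU-rich elements in 3′ untranslated regions are bound by proteins that set the decay of short-lived transcripts, and the SERPINB2 transcript is a known carrier of them. In the 583 bases of the 3′ untranslated region of the canonical SERPINB2 transcript the pentamer ATTTA occurred 4 times, or 6.86 times per kb, and 3.41% of the regions of tested genes had more per kb. The 7-base word TATTTAT, in capitals here with its flanks, occurred once in SERPINB2, once in PLAUR and 2 times each in PLAU, F3 and TFPI2. These regions were read from GENCODE transcripts on GRCh38, and the sites are shown to let their flanks be compared.
SERPINB2: tactttgtTATTTATtattttat
PLAUR: attcatatTATTTATtttatact
PLAU, first: acactgaaTATTTATatttcact
PLAU, second: actattttTATTTATatttttgt
F3, first: ggattttcTATTTATgtaggtaa
F3, second: ccatttatTATTTATgtacaatt
TFPI2, first: tttctatcTATTTATctaccaat
TFPI2, second: aaggtgttTATTTATataaacca

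PLAT had 2 further occurrences and TFPI 3, and SERPINE2 was the only member without this word in its canonical 3′ untranslated region. Among 13636 tested genes with such a region, 35.8% carried it, and among regions no longer than that of SERPINB2 9.61% did. TFPI2 had the densest ATTTA words of the members, 9.83 per kb against a median of 1.69 over tested genes. The word was present in members with higher and with lower means under plaB. Every member has introns, from 4 in TFPI2 to 13 in PLAT, with 7 in SERPINB2, and the median of the tested genes was 8.

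The values described from here on are adjusted reads, that is, reads per gene scaled by the authors to a common library size. The 6 libraries held between 22621338 and 26130882 reads on genes. DMSO replicate 2 stood apart from the other DMSO libraries, with a chi-square per degree of freedom of 7.41 and 7.31 against them, where counting error alone gives 1 and the other pairs of a group gave 2.01 to 4.84. SF3B1, the target of the drug, rose from 10085 ± 300 to 12509 ± 333 adjusted reads (SD, n = 3), with a limma adjusted p of 7.5e-06. The epithelial genes KRT8 and KRT18 were abundant and PAX8, a transcription factor of Mullerian epithelium, had 3979 to 4411 reads. KRT7 had 6252 to 13239 reads, MSLN 3383 to 5427 and EPCAM 404 to 509. WT1 (14 to 32 reads), MUC16 (11 to 24), KRT19 (8 to 24) and SOX17 (7 to 12), also on the list of ovarian markers, were low in every library. Fewer cells of a type and less RNA per cell cannot be told apart in such bulk samples.

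SERPINB2 showed the largest difference of the 8 genes. Its protein is a serpin of clade B, largely kept inside the cell, that inhibits urokinase and tissue-type activator. It had 2737, 3613 and 2706 adjusted reads in DMSO replicates 1 to 3 and 16101, 19119 and 10026 in plaB replicates 1 to 3. The lowest plaB library lay 6412 adjusted reads above the highest DMSO library, so the groups did not overlap. The mean was 5.0-fold higher with plaB, 15082 ± 4632 against 3019 ± 515 (SD, n = 3), a difference of 2.28 on the scale log2(value + 1) with a standard error of 0.16. By this log2 fold change SERPINB2 ranked 29 among the 16178 tested genes, and 0.198% of them had a larger change in either direction. Its share of all reads on genes went from between 0.011% and 0.0143% to between 0.0416% and 0.0792%.

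The size of the SERPINB2 difference varied between libraries more than the other members did. Within groups the log2 values had an SD of 0.38, with 0.24 in DMSO and 0.48 in plaB. This was larger than in each of the 475 other genes of like abundance (99.8% of the set with SERPINB2 itself counted). The high DMSO value came from replicate 2, the library that stood apart, and the low plaB value from replicate 3. Without DMSO replicate 2 the log2 fold change was 2.42, without plaB replicate 3 it was 2.55 and without plaB replicate 2 it was 2.09. TFPI2 also varied widely for its level, with an SD of 0.17. This exceeded that of 98.2% of a set made of TFPI2 itself and 341 other genes of like abundance.

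**Figure D1:**
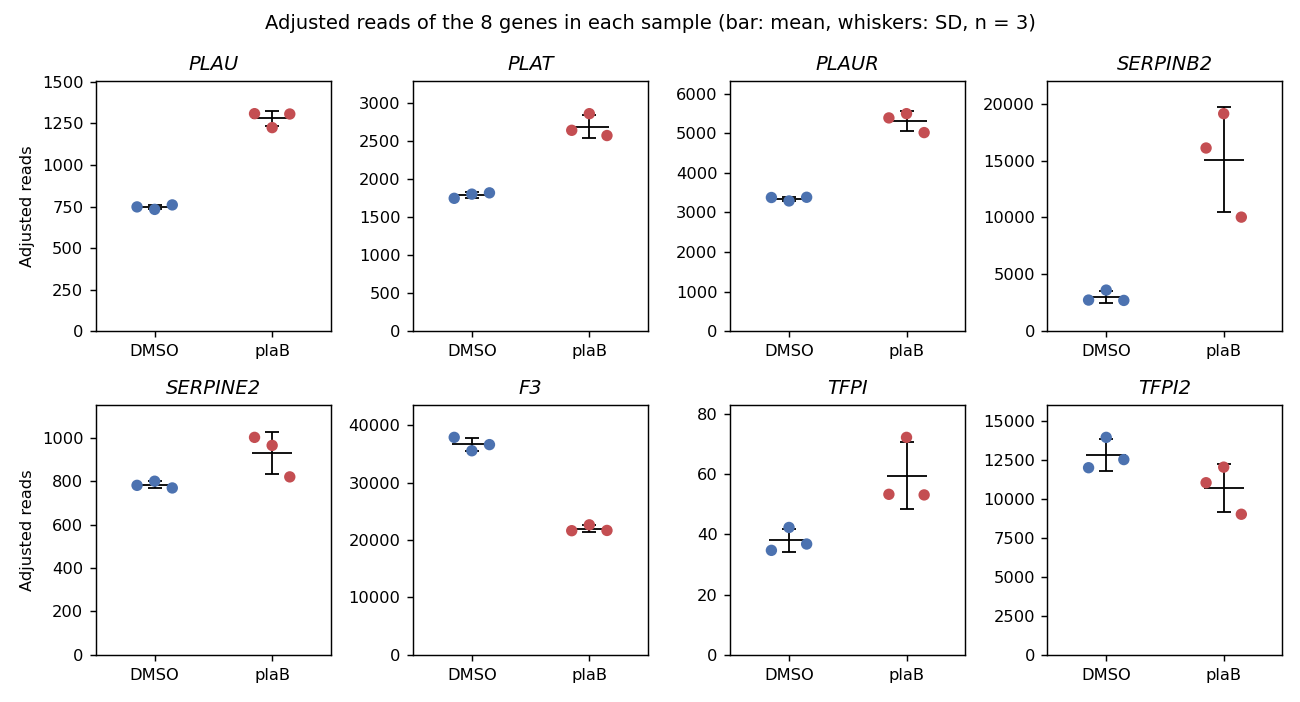
Adjusted reads (linear vertical axes starting at 0, 1 panel per gene) in each of the 3 DMSO samples (blue) and 3 pladienolide B samples (red), with the mean as a bar and the SD as whiskers. The groups separate for every gene except TFPI2, and SERPINB2 shows the widest spread among treated samples, from 10026 to 19119.

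SERPINE2, the other serpin among the members, encodes protease nexin 1, a secreted serpin that binds thrombin, urokinase and plasmin. The gene lies at chr2:223975045-224039286 on the minus strand. Its adjusted reads were 781, 800 and 769 in DMSO and 1002, 965 and 820 with plaB. The groups were separated by 19.4 adjusted reads, plaB replicate 3 lying close to the DMSO samples. The log2 fold change was 0.24 with a standard error of 0.07, and it was 0.18 without plaB replicate 1 and 0.21 without plaB replicate 2. In both of those fits SERPINE2 was no longer past the threshold used for all genes.

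The activators and the urokinase receptor were each higher by a similar amount. PLAU, at chr10:73909182-73917497 on the plus strand, had 748, 733 and 760 adjusted reads in DMSO and 1309, 1225 and 1307 with plaB. Replicates lay close together and the groups were 465 adjusted reads apart. The mean was 1.71-fold higher, 1280 ± 48.0 against 747 ± 13.6 (SD, n = 3), and the log2 fold change 0.78 with a standard error of 0.06. PLAU overlaps C10orf55, an RNA gene on the opposite strand, and the sources used here do not state whether reads were assigned by strand, so their reads cannot be told apart. C10orf55 had a mean of 39.2 adjusted reads in DMSO and 53.6 with plaB.

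PLAUR, which encodes the GPI-anchored receptor that focuses urokinase on the cell surface, lies at chr19:43646095-43670197 on the minus strand. It had 3376, 3289 and 3382 adjusted reads in DMSO and 5386, 5493 and 5015 with plaB. All plaB samples lay above all DMSO samples. The mean was 1.58-fold higher, with a log2 fold change of 0.66 and a standard error of 0.04. PLAT, whose product acts mainly in fibrin clots and in neural tissue, lies at chr8:42174718-42207565 on the minus strand. It had 1749, 1804 and 1821 adjusted reads in DMSO and 2644, 2863 and 2575 with plaB. Again the groups did not overlap. Its mean was 1.5-fold higher, with a log2 fold change of 0.59 and a standard error of 0.05.

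F3 was the member with the most adjusted reads in both groups, and its mean was lower under plaB. This gene, at chr1:94529173-94541759 on the minus strand, had 37872, 35540 and 36609 adjusted reads in DMSO and 21624, 22642 and 21670 with plaB. The 2 groups were 12898 adjusted reads apart. Under plaB the mean was 59.9% of that in DMSO, 21979 ± 575 against 36674 ± 1167 (SD, n = 3). The log2 fold change was -0.74 with a standard error of 0.04, and it stayed between -0.76 and -0.72 when any 1 sample was left out.

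The inhibitors of the tissue factor arm differed from each other in level. TFPI, which blocks the complex of tissue factor with factor VIIa, lies at chr2:187464230-187554501 on the minus strand and was scarce, with 34.7, 42.3 and 36.8 adjusted reads in DMSO and 53.3, 72.2 and 53.1 with plaB. The groups were 10.8 adjusted reads apart. Its log2 fold change was 0.63 with a standard error of 0.21, and this gene fell short of the threshold without DMSO replicate 1 (0.57), without DMSO replicate 3 (0.61) and without plaB replicate 2 (0.48). The antisense gene that overlaps TFPI, LOC105373786, had at most 1 read in any library.

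TFPI2, a matrix-bound Kunitz inhibitor of plasmin and other proteases, lies at chr7:93885396-93890753 on the minus strand. It had 12022, 13971 and 12544 adjusted reads in DMSO and 11058, 12059 and 9033 with plaB. It was the only member whose groups overlapped, since plaB replicate 2 lay above DMSO replicate 1. The mean with plaB was 83.4% of that in DMSO and the log2 fold change -0.27 with a standard error of 0.08. Without plaB replicate 3 it was -0.15, and TFPI2 was then not past the threshold.

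**Figure D2:**
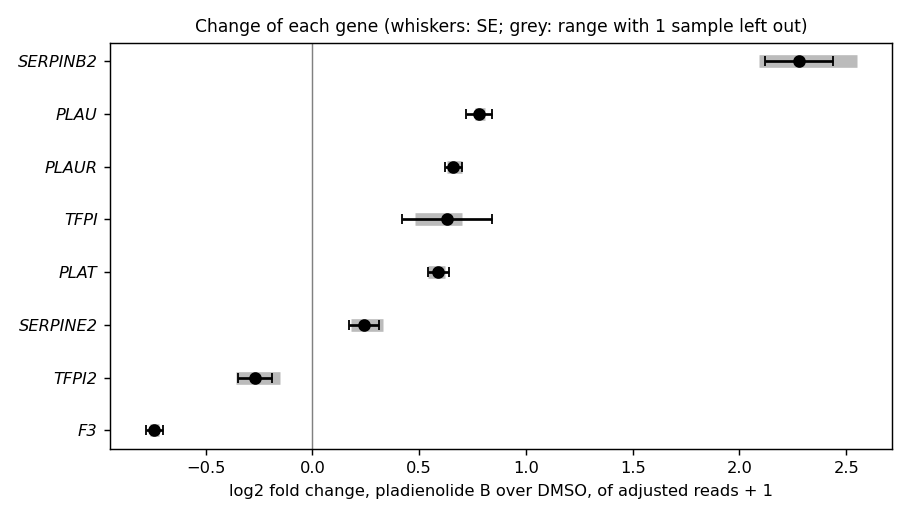
Log2 fold change of adjusted reads + 1, pladienolide B over DMSO (horizontal axis), for each of the 8 genes (vertical axis), with standard errors as whiskers and a grey bar for the range when 1 of the 6 samples is left out. SERPINB2 lies at 2.28, PLAU, PLAUR, TFPI and PLAT between 0.59 and 0.78, and F3 at -0.74.

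In the limma fit across all genes, 6 of the 8 members were called higher with plaB and 2 lower at an adjusted p below 0.05. Of all tested genes 47.6% were called, 22.4% higher and 25.2% lower. The groups did not overlap for 6 members with higher and 1 with lower values, where 55.3% of all genes had groups that did not overlap, 26.4% higher and 28.8% lower. A called change of at least 2-fold was found for SERPINB2 alone, against 1.95% of genes with such a rise and 1.98% with such a fall. The median log2 fold change of the members was 0.61 and that of all tested genes -0.004. Since the members were named with this contrast known, nothing is read from these counts.

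Levels can be compared between genes only per length, and were taken as adjusted reads per kb of the canonical GENCODE transcript. In DMSO the order of the mean levels was F3 with 15959 adjusted reads per kb, TFPI2 with 5820, PLAUR with 2448, SERPINB2 with 1584, PLAT with 585, SERPINE2 with 352, PLAU with 319 and TFPI with 9.84. No neighbours in this order overlapped across the DMSO samples. With plaB the order was F3 with 9564, SERPINB2 with 7913, TFPI2 with 4856, PLAUR with 3873, PLAT with 880, PLAU with 546, SERPINE2 with 417 and TFPI with 15.4. There the ranges of F3 and SERPINB2 overlapped, and so did those of SERPINB2 and TFPI2. Among 15057 genes with a canonical length, SERPINB2 went from rank 1110 in DMSO to rank 149 with plaB, while F3 went from rank 85 to rank 125.

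The length used matters for part of this order. Per kb of all annotated exons merged, a choice added after the values were seen, the DMSO level of SERPINB2 was 1101 and that of PLAUR 751, which exchanges their places. The activators exchanged places as well, with 253 for PLAU and 231 for PLAT, and SERPINE2 lay below both with 87.5. F3 with 12707, TFPI2 with 5256 and TFPI with 3.24 kept their places as first, second and last.

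**Figure D3:**
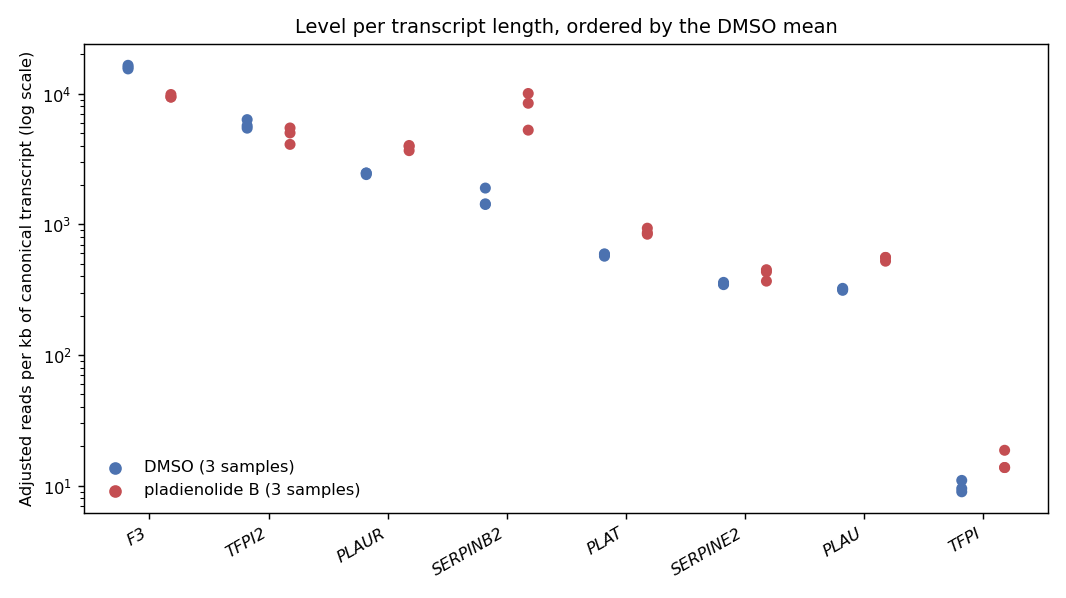
Adjusted reads per kb of the canonical transcript (vertical axis, log scale) in each DMSO sample (blue) and pladienolide B sample (red) for the 8 genes in the order of their DMSO means. SERPINB2 moves from the fourth place in DMSO, at 1584, to within the range of F3 and TFPI2 with pladienolide B.

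Sums and ratios by role were taken within each sample. They cover the members alone, so they do not give the balance of all inhibitors with the activators. The activators PLAU and PLAT together had 904 ± 14.3 adjusted reads per kb in DMSO and 1426 ± 29.9 with plaB (SD, n = 3). The inhibitors SERPINB2 and SERPINE2 together had 1936 ± 277 and 8330 ± 2467. The ratio of these inhibitors to the activators was 2.01, 2.5 and 1.92 in the DMSO samples and 6.26, 7.18 and 4.02 in the plaB samples. Every plaB sample had a higher ratio than every DMSO sample. The higher ratio came from SERPINB2, with 1584 adjusted reads per kb in DMSO and 7913 with plaB, where SERPINE2 had 352 and 417. SERPINE2 alone rose less than either activator, with a log2 fold change of 0.24 against 0.78 for PLAU and 0.59 for PLAT. SERPINB2 over PLAU was 4.5, 6.06 and 4.38 in DMSO and 15.1, 19.2 and 9.43 with plaB, which again did not overlap. The ratio of receptor to urokinase, PLAUR over PLAU, was 7.73, 7.69 and 7.62 in DMSO and 7.05, 7.68 and 6.57 with plaB. The groups overlapped, through plaB replicate 2. The level of such ratios depends on the lengths: with all exons merged PLAUR over PLAU was 2.94 to 2.98 in DMSO and 2.54 to 2.97 with plaB, and SERPINB2 over PLAU was 3.83 to 5.3 and 8.25 to 16.8.

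In the tissue factor arm, F3 over TFPI2 was 3.03, 2.44 and 2.8 in DMSO and 1.88, 1.8 and 2.3 with plaB. All plaB ratios were lower than all DMSO ratios. F3 over TFPI was 1830, 1410 and 1669 in DMSO and 682, 527 and 685 with plaB, with a denominator of few reads. With all exons merged F3 over TFPI was 3409 to 4424 in DMSO and 1273 to 1656 with plaB.

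**Figure D4:**
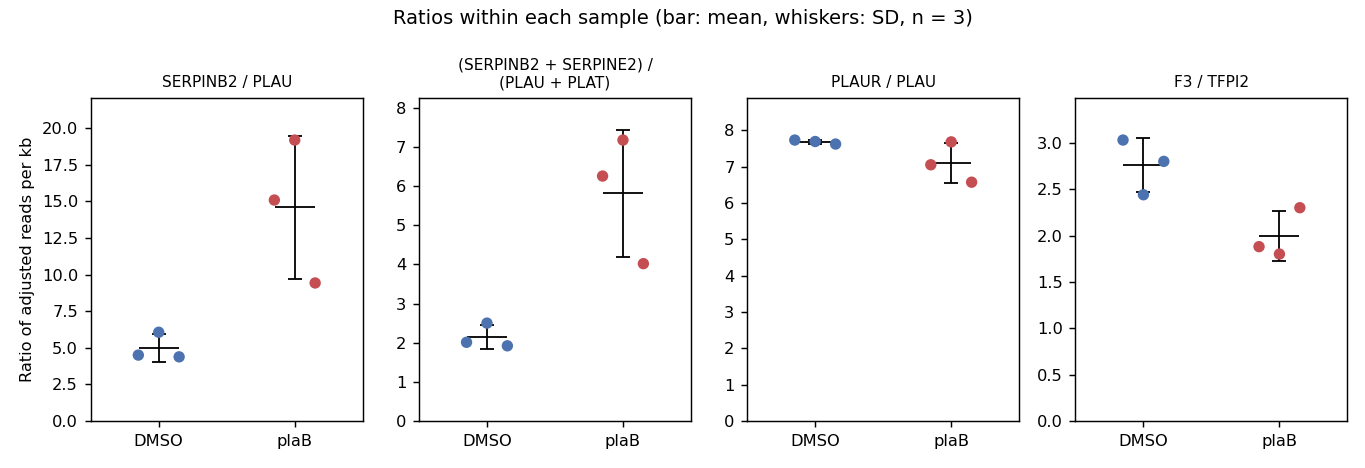
Ratios of adjusted reads per kb (linear vertical axes starting at 0) within each DMSO sample (blue) and pladienolide B sample (red), with the mean as a bar and the SD as whiskers (n = 3). SERPINB2 over PLAU averages 4.98 in DMSO and 14.6 with pladienolide B, and of the 4 ratios shown only PLAUR over PLAU overlaps between the groups.

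The other genes of the plasminogen system were mostly low or changed little. Of 14 such genes 7 were tested, 1 rose and 3 fell, and their median log2 fold change was -0.18. Counts of this and the later lists stand beside 22.4% of all tested genes called higher and 25.2% called lower. SERPINA5, protein C inhibitor, rose from 58.2 ± 1.13 to 86.1 ± 4.25 adjusted reads (SD, n = 3), a log2 fold change of 0.56 with a limma adjusted p of 0.01. F12, coagulation factor XII, which can start plasminogen activation through the contact system, fell from 467 ± 35.6 to 335 ± 35.5, a log2 fold change of -0.48 (limma adjusted p = 4e-04). Among surface binding sites for plasminogen, ENO1 fell by 0.27 (limma adjusted p = 3.6e-05) and S100A10 by 0.18 (limma adjusted p = 0.0013) on the log2 scale. Its partner ANXA2 had a log2 fold change of 0.01 (limma adjusted p = 0.88). PLG, the zymogen itself, had 3 reads or fewer in every library.

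Receptors that clear or dock these proteins included genes that fell, 0 of them by 2-fold or more. Of 15 uptake and surface partners 13 were tested, of which 8 fell and 1 rose, with a median log2 fold change of -0.20. Over all tested genes 25.2% were called lower and 22.4% higher. LRP1, the endocytic receptor for complexes of activators and serpins, had 5118, 4234 and 5253 adjusted reads in DMSO and 2903, 3207 and 3023 with plaB. Its log2 fold change was -0.67 with a standard error of 0.07 (limma adjusted p = 3.2e-07). VLDLR, a related receptor, fell from 705 ± 111 to 392 ± 22.1 (SD, n = 3), a log2 fold change of -0.83 (limma adjusted p = 2.7e-06). DMSO replicate 2 had the lowest value of its group for both receptors. ITGAV, the integrin subunit of the vitronectin receptor, fell by 0.82 on the log2 scale (limma adjusted p = 3.5e-09). NRP1, a co-receptor of semaphorins and VEGF, was the gene of the list that rose, by 0.88 (limma adjusted p = 7e-08).

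Of 28 other coagulation genes 11 were tested, 2 rose and 3 fell, with a median log2 fold change of 0.02. F2RL1, the protease-activated receptor 2, which responds to the complex of tissue factor and factor VIIa, had 41.5, 30.3 and 39.8 adjusted reads in DMSO and 72.0, 93.5 and 72.2 with plaB. Its log2 fold change was 1.07 (limma adjusted p = 3.7e-04). The thrombin receptor F2R rose by 0.32 (limma adjusted p = 8.3e-04). VKORC1, the vitamin K reductase, fell by 0.36 (limma adjusted p = 2.6e-05), and F10, the zymogen that tissue factor and factor VIIa cut, fell by 1.55 (limma adjusted p = 0.0096). F10 rested on 3 to 20 reads per library and its adjusted p was 0.051 without DMSO replicate 2. F7 had 5 to 9 reads in every library and was not tested.

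SERPINB2 lies at chr18:63887705-63903890 in a cluster of clade B serpin genes, and the tested genes chosen in and around it differed little. Of 13 genes chosen from the region, 7 had fewer than 20 reads in every library, among them SERPINB10, which starts 4.07 kb beyond the end of SERPINB2 and had 0 to 3 reads. Of the 6 tested genes 4 were called, all of them higher, with a median log2 fold change of 0.18. KDSR and the 2 tested genes that were not called lie 465 to 567 kb away, outside the serpin genes. HMSD, 45.4 kb away, rose by 0.36 (limma adjusted p = 0.0053), and SERPINB7, 82.3 kb away on the other side, rose by 0.28 (limma adjusted p = 0.0011). SERPINB8 and KDSR rose by 0.16 each, with limma adjusted p-values of 0.038 and 0.04, and each lost its call under 7 of 12 alternatives. The count was 2 in place of 4 with DMSO replicate 1, DMSO replicate 3 or plaB replicate 1 left out.

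Among all 12 other clade B serpins 5 were tested, of which 4 rose and 1 fell, with a median log2 fold change of 0.25. With so few tested genes, and 47.6% of all genes called, nothing is read from this count. SERPINB7 and SERPINB8 are on both lists. SERPINB9, the inhibitor of granzyme B, had 134, 124 and 136 adjusted reads in DMSO and 193, 209 and 222 with plaB, a log2 fold change of 0.66 (limma adjusted p = 1.8e-04). SERPINB1, an inhibitor of neutrophil proteases, rose by 0.25 (limma adjusted p = 4.2e-04), and SERPINB6 fell by 0.33 (limma adjusted p = 9.8e-06). SERPINB4 had 0 reads in each DMSO library and 3, 3 and 4 with plaB, too few to be tested. Its neighbour SERPINB3 is a near-identical copy, with at most 1 read.

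Of 14 serpins of other clades 6 were tested and 2 were called, both lower, with a median log2 fold change of -0.31. SERPINA1, alpha-1 antitrypsin, fell by 0.67 (limma adjusted p = 0.0079), but its groups overlapped, with 153, 260 and 120 adjusted reads under plaB. Without plaB replicate 3 the log2 fold change was -0.43 (limma adjusted p = 0.062), and without plaB replicate 2 it was -0.98 (limma adjusted p = 5.6e-05). SERPINE3 fell by 0.28 (limma adjusted p = 0.0094). Without plaB replicate 2, 4 genes of the list were called in place of 2, and without plaB replicate 3 the count was 1.

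The genes whose profile over the 6 samples was nearest to that of SERPINB2 were sought. Profiles were compared as log2(value + 1) centred on the DMSO mean, by the root mean square difference, among 12031 tested genes with a DMSO mean of at least 100. The nearest was IL1B, the cytokine interleukin 1 beta, at 0.17, with 510, 494 and 477 adjusted reads in DMSO and 2872, 3394 and 1902 with plaB. Like SERPINB2, it was highest in plaB replicate 2 and lowest in plaB replicate 3 among treated samples. LINC02246, a long non-coding RNA gene, followed at 0.25, and then came NEAT1, the RNA of nuclear paraspeckles, at 0.45, TNFRSF6B, a decoy receptor for FAS ligand, at 0.54, and MYPN at 0.57. Their log2 fold changes lay between 1.68 and 2.42. Because these genes were picked for likeness over the same 6 samples, a similar size of change or order of samples is built into the choice.

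**Figure D5:**
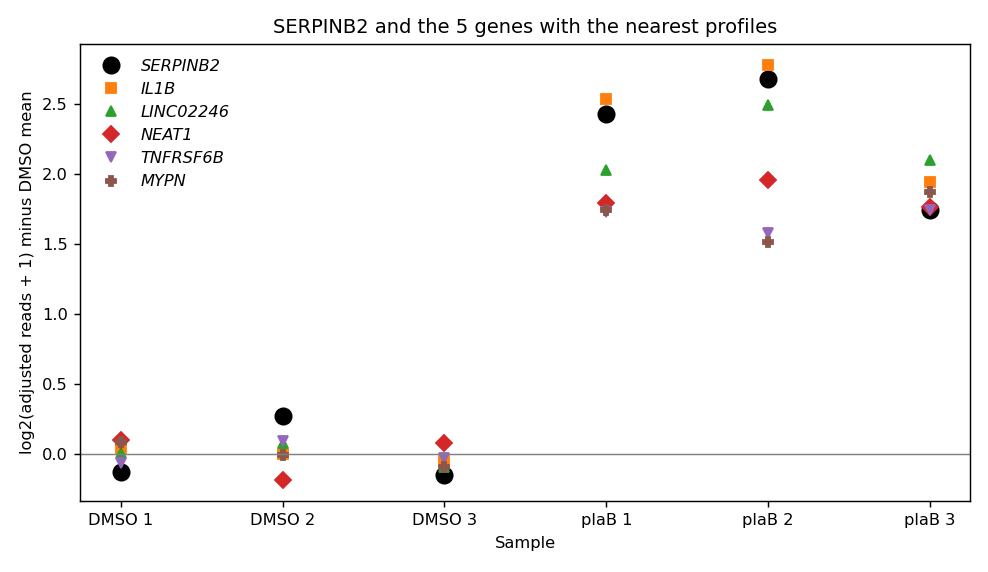
Log2(adjusted reads + 1) minus the DMSO mean (vertical axis) in each of the 6 samples (horizontal axis) for SERPINB2 (black) and the 5 genes with the nearest profiles. SERPINB2, IL1B, LINC02246 and NEAT1 have their highest value in pladienolide B replicate 2, while TNFRSF6B and MYPN have their lowest treated value there.

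SERPINB2 and IL1B are also expressed by activated monocytes, so the markers of other cell types are given. Counts of called markers stand beside 22.4% of all tested genes called higher and 25.2% called lower. The summed monocyte and macrophage markers had 1133 to 1298 adjusted reads in DMSO and 1521 to 1625 with plaB. Of these 8 genes only 2 had enough reads to be tested, of which 1 was called higher and 1 lower. CD68, a lysosomal protein gene with 1155 to 1508 reads, made up nearly all of this sum and rose by 0.41 (limma adjusted p = 2.4e-05). PTPRC, CD163, FCGR3A and LYZ had 0 to 2 reads in every library, CD14 had 5 to 19 and CSF1R 7 to 17. ITGAM had 11 to 34 and was called lower, with a log2 fold change of -0.99 (limma adjusted p = 0.021). Endothelial markers summed to 235 to 269 and 325 to 346, and of 7 genes 5 were tested and 1 was called, higher. This was ESAM, with 153 to 221 reads and a log2 fold change of 0.34 (limma adjusted p = 0.038). VWF had 20 to 45 reads (log2 fold change 0.64), KDR 11 to 24 (0.73), CLDN5 5 to 23 (0.96) and PECAM1 23 to 42 (0.05), none of them called. TEK with 2 to 10 reads and CDH5 with 0 to 4 were not tested. Fibroblast markers summed to 6969 to 7153 and 5920 to 6580, nearly all from COL1A1. Of these 7 genes 4 were tested and 2 were called, both lower, and DCN had 0 to 2 reads. Keratinocyte markers summed to 26.4 to 29.2 and 18.5 to 38.1 with LORICRIN at 0, and 1 of the 7 was tested and not called. The hepatocyte markers ALB, HP and APOA1 had 9 reads or fewer in every library with TTR at 0, and none was tested. Ovarian markers summed to 80778 to 86669 and 81220 to 96579, and of 10 genes 9 were tested, of which 2 were called higher and 2 lower. KRT8 rose by 0.27 (limma adjusted p = 8.4e-04) and KRT18 by 0.29 (limma adjusted p = 9.6e-04) on the log2 scale. KRT7 fell by 0.64 (limma adjusted p = 7.7e-06) and MSLN by 0.44 (limma adjusted p = 4.5e-07). The part of these markers in the members' values was not tested.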

How the data were processed

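Wild-type OVCAR8 cells treated for 72 h with DMSO or 2 nM pladienolide B were compared (3 samples each). The members and gene lists were chosen with earlier results of these data known. The authors aligned reads to hg38 with hisat2, while the submitters' processing notes name HISAT2, HTSeq 0.12.4, DESeq2 and hg19. Positions of all 8 members in the table overlap RefSeq genes of GRCh38.p14, so coordinates are given on that build. Whether counting used strand is not given in the sources used here.

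The authors deposited 1 signal per gene and sample, adjusted for library size. They correspond to counts adjusted by edgeR's quantile method with a dispersion of 0.0027. Inverting this step gave whole reads for 100.00% of 96432 values of 10 or more, within 0.02 reads. The deposited table also holds the authors' log2 fold changes and p-values with q-values, which were not used.

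Values were tested as log2(value + 1) with limma 3.58.1 (R 4.3.3), with a variance trend, two-sided, with Benjamini-Hochberg adjustment at 0.05 over the 16178 genes kept by filterByExpr of edgeR 4.0.16 (minimum count 10, total 15, 3 samples). The scale understates changes of genes with few reads. Scripts were tested on simulated data. Alternatives were edgeR's quasi-likelihood test with TMM and DESeq2 1.42.0 on the recovered reads, no filter, a pseudocount of 0.1, no variance trend, the replicate number as a block and leaving out each sample. The rule named all members, up to 4 called genes per list with the largest change, the 5 nearest profiles and SF3B1, and allowed other tested genes of the plasminogen, coagulation and clade B lists, of which ANXA2, S100A10 and SERPINB8 are given. C10orf55 and LOC105373786 were named for their overlap with members. PLG, F7, SERPINB10, SERPINB3, SERPINB4 and the markers were named after their values were seen. Lists covered other plasminogen, coagulation and serpin genes, uptake partners, neighbours of SERPINB2, pericellular proteases and AU-rich element binding proteins. A gene of the system is not reported here.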

Additional observations from a re-analysis of the deposited data

How the results depend on the processing

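The direction of each member's difference was the same under all 12 alternatives, and between 6 and 8 members were called in each. SERPINE2, TFPI and TFPI2 were not called under 3, 4 and 3 of them, and the cause was not tested. The count over all genes ranged from 6381 without the variance trend to 7855 without DMSO replicate 2, with 7738 by edgeR and 6985 by DESeq2. Of the neighbours of SERPINB2, 2 in place of 4 were called without the variance trend, and leaving out 1 sample gave 2 to 4. Of the other serpins 2 were called, against 1 with DESeq2 and 1 without the variance trend, and leaving out 1 sample gave 1 to 4. The change kept its sign under every alternative for the members, the up to 4 called genes named per list and SF3B1. That of ANXA2, which was not called, lay between -0.02 and 0.06 when any 1 sample was left out. The markers and the genes with the nearest profiles were not followed through the alternatives. The median log2 fold change over all tested genes, -0.004, was 0.021 with no filter and 0.005 with DESeq2. APLP2 lost its call under 8 of the 12 alternatives, KDSR and SERPINB8 under 7 each, SERPINA1 under 3 and F10 under 1. Without the variance trend 5 uptake and surface partners fell in place of 8, and 3 AU-rich element binding proteins in place of 5. The DMSO levels per kb of all exons merged were 1101 for SERPINB2, 87.5 for SERPINE2, 253 for PLAU, 751 for PLAUR, 231 for PLAT, 12707 for F3, 3.24 for TFPI and 5256 for TFPI2.

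Same-numbered samples had deviations correlated at -0.02, -0.02 and 0, so no shared replicate effect was seen. The labels do not say whether same-numbered samples were set up together, and these correlations cannot tell. With the replicate number as a block 7349 genes were called, all 8 members among them, and 2 in place of 4 neighbours of SERPINB2. TFPI and F10 rest on few reads per library.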

Other observations

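Further gene groups lie beside the plasminogen system. Of 25 pericellular proteases and Kunitz inhibitors 13 were tested, of which 3 rose and 1 fell, with a median log2 fold change of 0.11. HGFAC, the serine protease that activates hepatocyte growth factor, had 20.8, 12.1 and 20.9 adjusted reads in DMSO and 45.2, 65.2 and 94.2 with plaB. Its log2 fold change was 1.85 with a standard error of 0.30 (limma adjusted p = 6.9e-05), on few reads. SPINT2, a Kunitz inhibitor of HGFAC and matriptase, rose from 2513 ± 98.8 to 3107 ± 158 (SD, n = 3), a log2 fold change of 0.31 (limma adjusted p = 7.4e-05). APLP2 had a log2 fold change of 0.11 (limma adjusted p = 0.034) and lost its call under 8 of 12 alternatives, 5 of them with 1 sample left out. MST1R, the receptor of macrophage-stimulating protein, fell by 0.38 (limma adjusted p = 0.0024).

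The 12 proteins that bind or act on AU-rich elements were all tested, and 1 rose and 5 fell, with a median log2 fold change of -0.04. Without DMSO replicate 1 or without plaB replicate 1, 3 fell in place of 5. ZFP36, tristetraprolin, which speeds the decay of transcripts with such elements, had 136, 145 and 165 adjusted reads in DMSO and 245, 263 and 216 with plaB. Its log2 fold change was 0.70 with a standard error of 0.12 (limma adjusted p = 1.3e-04). HNRNPC fell by 0.39 (limma adjusted p = 6.4e-06), HNRNPD, also known as AUF1, by 0.31 (limma adjusted p = 1.4e-05) and TIA1 by 0.16 (limma adjusted p = 0.01) on the log2 scale. The stabilising protein ELAVL1 had a log2 fold change of 0.02 (limma adjusted p = 0.69). ELAVL1 was named after its values were seen.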
